A study of Rattus norvegicus with 12 samples.

Results

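The comparison described here sets RNA that came down with an antibody against Cpeb4 beside the total RNA of the same kind of cell, in cardiomyocytes under mock treatment. Its members are the 6 mock libraries of the 12 in the series, 3 of input and 3 of precipitate (IP), chosen by their labels and described over all genes. The cells were ventricular myocytes of Wistar rats, with an age of 2 day on the labels, isolated with trypsin and a Percoll gradient. The precipitates had been washed in high salt and Triton. The other 6 libraries are input and IP of cells that had received phenylephrine (PE), which activates alpha-adrenergic receptors, for 24 h. The labels give an antibody of "none" for the inputs, and no precipitate of a control antibody was analysed here, so RNA bound to Cpeb4 and RNA carried along by antibody or beads cannot be told apart.

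Cpeb4 belongs to the cytoplasmic polyadenylation element binding proteins. These proteins recognise uridine-rich elements in the 3′ untranslated regions of mRNAs and recruit factors that lengthen or shorten the poly(A) tail, and so raise or lower translation. In heart muscle, whose cytoplasm is crowded with mitochondria and with very abundant mRNAs of the contractile apparatus, a precipitate has to be read against a total RNA in which few transcripts hold most of the mass. The libraries came from a kit that reads the 3′ ends of polyadenylated RNA, so a count stands for a transcript end and does not grow with transcript length.

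The deposited table names genes by Ensembl rat identifier alone, and 0 of 32883 identifiers could be paired with a symbol or a chromosome in the reference used here. Mitochondrially encoded and nuclear genes could therefore not be counted separately, the labelled cell type could not be checked against its markers, and the Cpeb4 transcript itself could not be read. Genes are described below by their level, and at most 2 identifiers are given for each direction.

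Replicate 2 stood apart from the others in both RNA pools. Mock input totals lay between 1423334 and 8479083 counts and mock IP totals between 5030021 and 17838962. At an equal depth of 1423334 counts, the expected number of genes with a count was 9760, 8367 and 9578 in inputs 1, 2 and 3. In the precipitates it was 10782, 7507 and 10119. The lowest value of each pool was replicate 2, although IP replicate 2 was the deepest library. Between the pools the means differed by 235 genes, less than the spread among the libraries (two-sided exact permutation p = 0.8, 3 against 3, 0.8 after Benjamini-Hochberg adjustment over 3 measures), so a difference in the number of genes was not detectable here. Whether the replicates are separate cultures or animals is not stated on the labels, so the p-values cover the spread between these libraries only, and that spread may be technical.

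Counts were spread over far more genes in the precipitate than in the input. The effective number of genes, which is the number of equally abundant genes that would give the same Shannon entropy of counts, was 108, 395 and 94.2 in inputs 1, 2 and 3. In the precipitates it was 1137, 1433 and 1158. The lowest IP library lay above the highest input, and the means were 199 ± 170 (SD, n = 3) and 1243 ± 165 (n = 3; exact permutation p = 0.1, the smallest that 3 against 3 can give, adjusted 0.15).

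A stretch of adjacent rows in the table held a large part of the input counts and far less of the IP counts. Among 36 such rows, noticed because 6 of the 61 genes lower in the precipitate stood in them, were 24 genes that could be tested. These rows held 58.8%, 31.3% and 62.1% of all counts in inputs 1, 2 and 3, and 17.8%, 4.12% and 17.1% in IP 1, 2 and 3. Every IP share was below every input share, and replicate 2 was the lowest of both pools. Of the 24 genes, 23 had a negative log2 fold change, with a median of -3.23 (the same with the 2 genes that had no IP count set at their bound), which compares IP and input in CPM (each count taken relative to the TMM-adjusted size of its library). The rows were found through the mock calls. Of all stretches of 40 rows, that with the most lower genes was taken, from its first such gene to its last. The mock values are thus a description with no test. The PE libraries entered that choice through the gene filter, the scaling and the spread, which they share with the mock libraries. In the PE libraries the same rows held 38.5% ± 13.6 (SD, n = 3) of input and 7.81% ± 5.48 (n = 3) of IP counts, with no overlap (exact permutation p = 0.1, the smallest possible). The file states neither what orders its rows nor which genes these are.

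**Figure D1:**
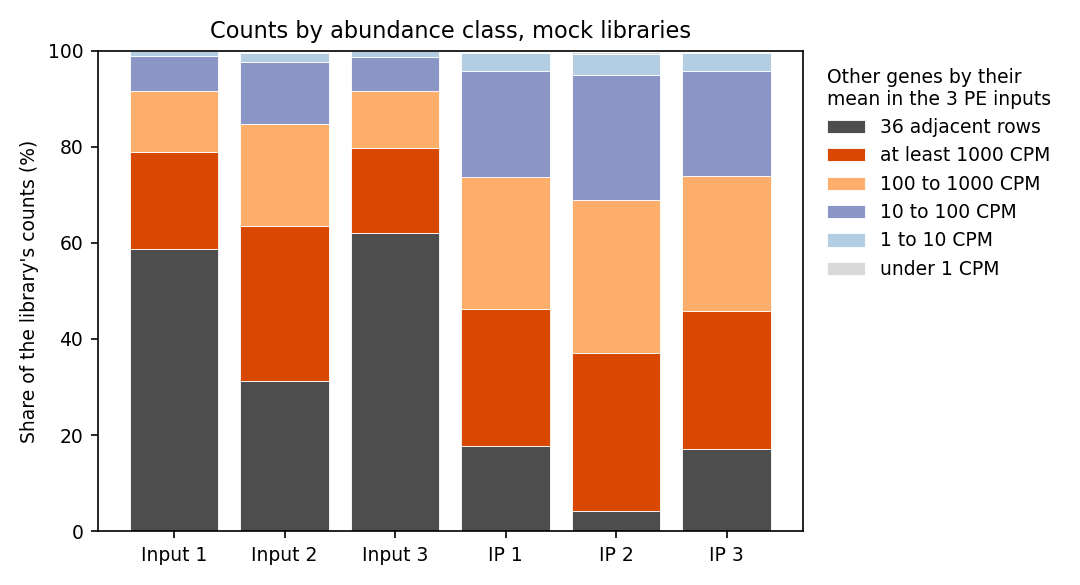
Share of each mock library's counts (vertical axis, percent) held by the 36 adjacent rows and by the other genes in 5 classes of their mean level in the 3 PE inputs, for the 3 inputs and 3 precipitates. The dark part takes 31.3% to 62.1% of input and 4.12% to 17.8% of IP counts, and all classes under 1000 CPM take larger shares of the precipitates.

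To ask whether depletion follows abundance without ranking genes by the libraries compared, genes were ranked by their mean level in the 3 PE inputs. The 131 genes at 1000 CPM or more there held 78.8%, 63.4% and 79.6% of counts in mock inputs 1, 2 and 3, and 46.2%, 36.9% and 45.8% in mock IP 1, 2 and 3. The means were 73.9% ± 9.13 (SD, n = 3) and 43.0% ± 5.23 (n = 3), again without overlap (exact permutation p = 0.1, the smallest possible, adjusted 0.15). Outside the 36 rows the libraries of each pool came much closer to each other. The 119 remaining genes of this class held 48.9%, 46.9% and 46.6% of the remaining input counts, and 34.6%, 34.3% and 34.7% of the remaining IP counts. The difference between the pools was thus many times the spread within them, and replicate 2 did not stand apart in this share. With these rows left out, the effective number of genes was 1087, 1105 and 1191 in input and 1961, 1499 and 1907 in IP, also without overlap. Of all counts, with the 36 rows in the total, the same 119 genes held 20.1%, 32.2% and 17.7% of input and 28.5%, 32.9% and 28.7% of IP.

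Gene by gene, the fold change went from positive to negative with increasing abundance. The median log2 fold change was 0.99 for the 765 genes under 1 CPM in PE input, 0.32 for 4177 genes at 1 to 10 CPM and 0.08 for 4477 genes at 10 to 100 CPM. It was -0.31 for 941 genes at 100 to 1000 CPM and -0.97 for the 131 genes above, against 0.11 over all 10491 genes tested. All 3 precipitates lay below all 3 inputs in 64.1% of the most abundant class and in 27.7% of the class before it, where the share over all genes was 7.9%. All 3 precipitates lay above all 3 inputs in 2.29% of the most abundant class, 12.4% of the class at 10 to 100 CPM and 9.96% of all genes. Within the most abundant class the medians of the 3 same-numbered pairs of IP and input were -1.23, -1.003 and -0.84 in pairs 1, 2 and 3. For genes under 10 CPM pair 2 had a median of 0.00, and in 286 genes under 1 CPM and 1014 at 1 to 10 CPM neither library of that pair had a count. Of the genes under 1 CPM, 164 had no count in 1 of the pools or in both; with such genes at the bound given by a floor of 3 counts over the group, the median of this class was 0.86, and that of the class at 1 to 10 CPM 0.32. These values are relative to the TMM scaling. With library totals alone the median of all genes moved up by 1.21, the median of the most abundant class was 0.19 and that of the least abundant 2.26, so the order of the classes held and the sign of the top class did not.

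**Figure D2:**
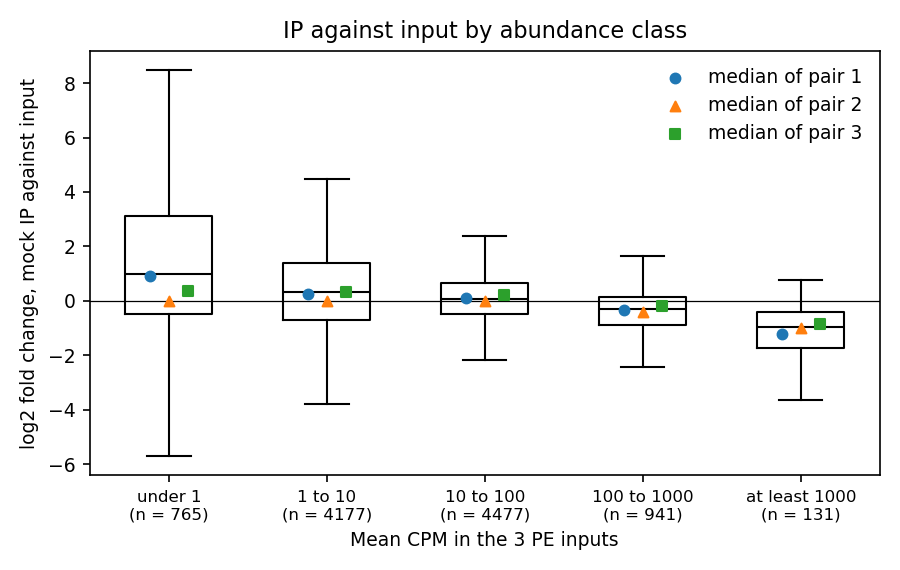
Log2 fold change of mock IP against mock input (vertical axis) in 5 classes of mean CPM in the 3 PE inputs (horizontal axis, n genes each). Boxes span the quartiles with the median as a line, whiskers reach 1.5 times the box, genes beyond them are not drawn, and symbols are the medians of the 3 pairs, which lie below 0 in the 2 most abundant classes.

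The ranking pool matters for the lower classes. Ranked by their mean in the 3 PE precipitates instead, 77 genes reached 1000 CPM, 69 of them also in the class above. Their median log2 fold change was -0.60, and they held 65.3% ± 9.93 (SD, n = 3) of mock input and 36.5% ± 5.12 (n = 3) of mock IP counts. The 952 genes at 100 to 1000 CPM then had a median of 0.02, and the 423 genes under 1 CPM one of -0.25, where the ranking by PE input gave 0.99. With TMM scaling, the median of the most abundant class was thus negative under both rankings. A positive median of the least abundant class was then seen under the ranking by input alone. With library totals, the ranking by PE precipitates gave the most abundant class a median of 0.61, and its least abundant class was positive too. The sign of the top class therefore depended on the scaling under both rankings. The share of all counts held by the top class was lower in mock IP under both, with the 36 rows left in the total.

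At single genes, 17 passed as higher and 61 as lower in the precipitate (edgeR quasi-likelihood test, adjusted p under 0.05), which is 0.162% and 0.581% of the 10491 genes tested. In all 78 the 3 IP libraries did not overlap the 3 inputs, against 17.9% of all genes tested. The 78 were picked by a test on these same libraries, so this follows largely from that choice. Of the genes that passed as lower, 33 fell in the class of 1000 CPM or more in PE input and 23 in the class of 100 to 1000 CPM, which is 25.2% and 2.44% of these classes. Of the genes that passed as higher, 15 fell in the class of 10 to 100 CPM, which is 0.335% of it, and 0 in the most abundant class. The median SE of the log2 fold change was 0.31 in the most abundant class, 0.68 at 10 to 100 CPM and 2.64 under 1 CPM, so a change of the same size could pass among abundant genes and be missed among rare ones. Leaving out mock replicate 2 and PE replicate 1, both input and IP, gave 164 genes higher and 344 lower (edgeR; 1.56% and 3.28% of the genes), among them all 17 and 60 of the 61. With input and IP of the same number taken as pairs, 95 genes were higher and 177 lower (edgeR with the replicate as a block), 0.906% and 1.69% of the genes, among them 16 of the 17 and 61 of the 61. No gene passed without mock input replicate 1 or without mock IP replicate 3 (edgeR, smallest adjusted p 0.0501 and 0.0648, with 856 and 1056 genes at an unadjusted p under 0.05).

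**Figure D3:**
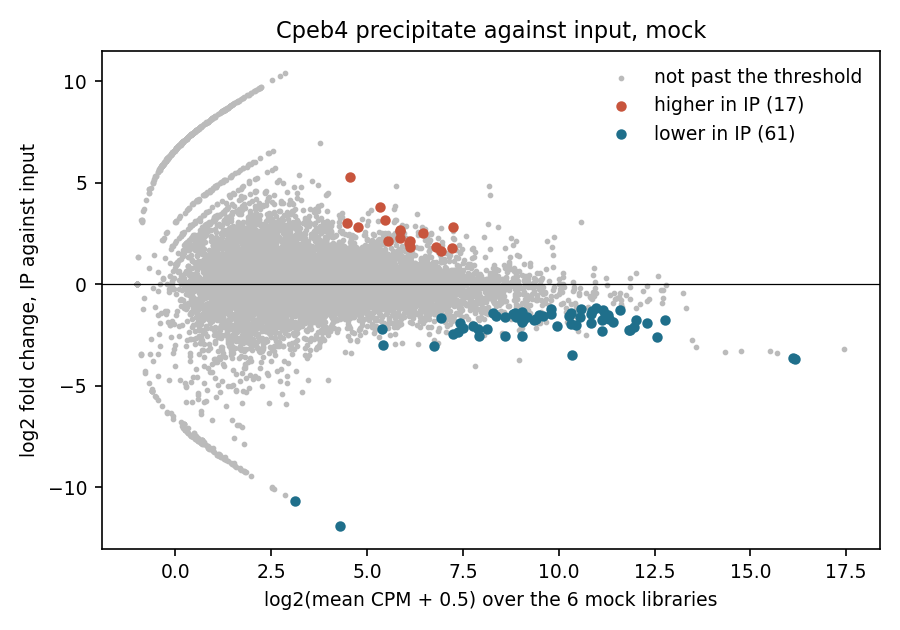
Log2 fold change of mock IP against mock input (vertical axis) by the log2 of the mean CPM plus 0.5 over the 6 mock libraries (horizontal axis), each point 1 of 10491 genes. The 61 genes that passed as lower lie mostly to the right, 57 of them at 100 CPM or more, and the 17 that passed as higher lie between 21.9 and 151 CPM; the curved outer bands are genes with no count in 1 of the pools.

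The 17 genes higher in the precipitate were of moderate level. Their median level was 23.2, 20.3 and 16.1 CPM in inputs 1, 2 and 3 and 68.1, 146 and 86.8 CPM in IP 1, 2 and 3. IP replicate 2 was the highest precipitate for 15 of the 17, where it was the highest for 3423 of all 10491 genes. The log2 fold changes ran from 1.63 to 5.29 with a median of 2.53, and 13 of the 17 were at least 4-fold. Together the genes took 0.0218%, 0.0367% and 0.0197% of input counts and 0.206%, 0.427% and 0.221% of IP counts. These shares describe genes chosen for this difference in these libraries. Of the 17, 10 passed in each of 4 other fits (replicate block, DESeq2 Wald test, limma voom with sample weights, and edgeR with mock replicate 2 and PE replicate 1 left out). Each of these 4 fits called more genes than the main fit. DESeq2 size factors and library totals each kept all 17. The fit of the 6 mock libraries alone kept 0 of them, as did those without mock input replicate 1 or mock IP replicate 3.

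The gene with the firmest enrichment was ENSRNOG00000004246. Its level was 3.14, 9.36 and 2.69 CPM in inputs 1, 2 and 3, from 13, 41 and 2 counts, and 62.9, 110 and 50.3 CPM in IP 1, 2 and 3. All 3 precipitates were far above all 3 inputs, and the ratios within the 3 pairs were 4.26, 3.54 and 4.14 on the log2 scale. The fit gave 3.78 on the log2 scale with an SE of 0.58 (edgeR adjusted p = 0.00811), and its call was kept in 10 of 12 fits with a single library left out. The exceptions were mock input replicate 1 (edgeR adjusted p = 0.0807) and mock IP replicate 3 (0.0648). In PE cells it had 11.0 ± 3.10 CPM (SD, n = 3) in input and 65.4 ± 11.98 CPM (n = 3) in IP, which passed at a log2 fold change of 2.57 with an SE of 0.54 (edgeR adjusted p = 0.0183). The change of enrichment between treatments was -1.21 (SE 0.74, edgeR unadjusted p = 0.12, adjusted 1.00).

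The largest fold among enriched genes, that of ENSRNOG00000015772, depended in its size on IP replicate 2. Its inputs held 5, 7 and 0 counts in replicates 1, 2 and 3, or 1.21, 1.599 and 0 CPM. Its precipitates had 12.1, 106 and 17.5 CPM. All precipitates were above all inputs, and IP replicate 2 was far above the other 2. The fit gave 5.29 on the log2 scale with an SE of 1.16 (edgeR adjusted p = 0.0439), and 3.68 without IP replicate 2 (edgeR adjusted p = 0.213). Without mock replicate 2 of input and IP it gave 4.05 (edgeR adjusted p = 0.201). With PE replicate 1 of both left out as well, it gave 3.99 and passed (edgeR adjusted p = 0.0386). The call stood in 3 of 12 fits with a single library left out, and was lost without any 1 of the 6 mock libraries (edgeR adjusted p from 0.0809 to 0.238). In PE cells it was at 5.48 ± 5.25 CPM (SD, n = 3) in input and 29.1 ± 16.9 CPM (n = 3) in IP, which did not pass (log2 fold change 2.42, SE 0.97, edgeR adjusted p = 0.302).

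The 61 genes lower in the precipitate were abundant, with 57 at 100 CPM or more and 28 at 1000 CPM or more over the 6 mock libraries, against 1065 and 117 of all genes tested. Their median level was 1472, 1109 and 1154 CPM in inputs 1, 2 and 3 and 340, 346 and 381 CPM in IP 1, 2 and 3, so every precipitate was below every input at the median. The median log2 fold change of the group was -1.78, also with the 2 genes that had no count in the precipitates set at their bound, and 24 of the 61 were at least 4-fold lower. IP replicate 2 was the lowest precipitate for 42 of the 61, where it was the lowest for 4997 of all 10491 genes. Of the 61, 59 passed in each of the 4 other fits named for the enriched genes, which called more genes than the main fit. DESeq2 size factors kept all 61, the 6 mock libraries alone kept 13 and library totals kept 7. Without mock input replicate 1 or mock IP replicate 3, 0 of the 61 were kept. The group held 20.4%, 29.3% and 23.3% of input counts and 9.08%, 6.64% and 9.33% of IP counts, again as a description of genes chosen for this.

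ENSRNOG00000043866, the more abundant of the depleted genes named here and 1 of the 6 in the 36 rows, had 129910, 121634 and 159729 CPM in inputs 1, 2 and 3. Its precipitates had 13259, 6830 and 12528 CPM, all of them far below the lowest input. The log2 ratios within pairs were -3.29, -4.15 and -3.67, and the fitted value was -3.66 (SE 0.54, edgeR adjusted p = 0.0124). These levels and folds are relative to the TMM scaling, and with library totals alone the fitted value was -2.45 (edgeR adjusted p = 0.0162). Leaving out each library in turn, 8 of 12 fits kept the call, and the other 4 were those without mock input replicate 1 (edgeR adjusted p = 0.0618) or without mock IP replicate 1, 2 or 3 (0.0723, 0.0899 and 0.0756). The levels in PE cells were 100320 ± 10577 CPM (SD, n = 3) in input and 9631 ± 8413 CPM (n = 3) in IP, which passed at -3.38 on the log2 scale with an SE of 0.53 (edgeR adjusted p = 0.00624), and the change between treatments was 0.28 (SE 0.69, edgeR unadjusted p = 0.696, adjusted 1.00).

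ENSRNOG00000056721 had no count in the 3 mock precipitates. Its inputs held 44, 452 and 1 counts in replicates 1, 2 and 3, or 10.6, 103 and 1.35 CPM. Input replicate 2 thus carried most of the signal, and input replicate 3 was close to the precipitates. With 3 counts over the group as the floor, which covers counting error only, the precipitates were at least 701-fold lower (edgeR adjusted p = 0.0384). Without input replicate 2 this bound was 109-fold and the test was not passed (edgeR adjusted p = 0.198). The call stood in 2 of 12 fits with a single library left out. With PE the inputs held 14, 34 and 57 counts and the precipitates 0, 0 and 4, which did not pass (log2 fold change -4.95, SE 1.81, edgeR adjusted p = 0.24).

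**Figure D4:**
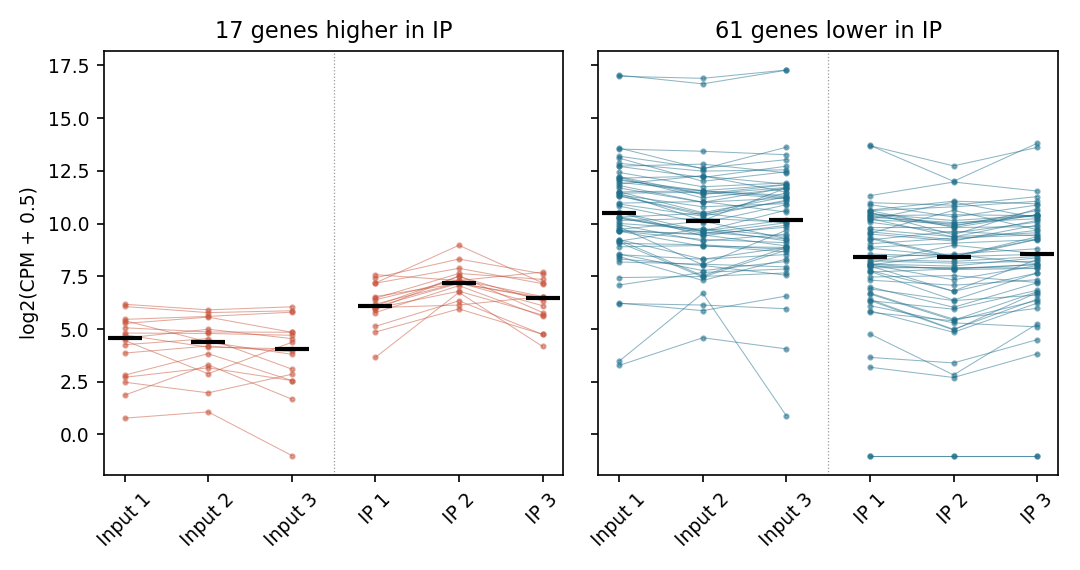
Log2 of CPM plus 0.5 (vertical axis) of the 17 genes that passed as higher (left) and the 61 that passed as lower (right) in each of the 3 mock inputs and 3 mock precipitates, lines joining 1 gene within a pool and black bars giving the median of a library. IP 2 has the highest median of the enriched genes at 146 CPM, and the bottom points at right are the genes with no count in any precipitate.

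Agreement between the 3 pairs was modest over all genes. Across 10491 genes, which are not independent replicates, the log2 ratio of IP to input correlated between pairs 1 and 3 with r = 0.24 (Pearson) and rho = 0.31 (Spearman). For pairs 1 and 2 these were 0.15 and 0.20, and for pairs 2 and 3 0.13 and 0.19. The SD of the log2 ratio over genes was 1.73, 3.00 and 2.10 in pairs 1, 2 and 3, with pair 2 the widest. In 20.2% of genes all 3 ratios were positive and in 15.5% all were negative.

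Genes seen in a single pool were few. Counts in all 3 precipitates and in no input were found for 72 genes, with a median of 118.5 counts over the 3 libraries and a highest of 801. Of these, 46 were tested and 0 passed, where 0.162% of all genes tested passed as higher. Counts in all 3 inputs and in no precipitate were found for 36 genes, with a median of 36 counts. Of these, 20 were tested and 2 passed as lower, where 0.581% of all genes tested did. Both sets were picked by the same counts that the test used, so their numbers of calls only describe that choice. The precipitates were on the whole sequenced more deeply than the inputs, and the part of depth in these numbers was not tested.

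The genes called in mock cells lay in the same direction in PE cells. The libraries are separate, but the calls came from a fit in which all 12 libraries set the gene filter, the scaling and the spread. The median log2 fold change in PE cells was 1.49 for the 17 higher genes and -2.03 for the 61 lower, against 0.18 over all genes, and all 17 and all 61 kept their sign. Of all 10491 genes tested, 6851 had the same sign in both treatments. In that fit 6 of the 17 and 47 of the 61 also passed in PE cells, where 0.458% of all genes passed as higher and 1.65% as lower. In a fit of the 6 PE libraries alone, 3 of the 17 passed as higher and 43 of the 61 as lower, where 0.286% and 1.02% of the genes of that fit did. The PE value was the larger in size for 1 of the 17 and for 36 of the 61. Both groups had been chosen by their mock values, and the part of that choice in these sizes was not tested. A test of the change of enrichment passed 0 of the 78 genes and 0 of all genes (edgeR), with 3 of the 17, 5 of the 61 and 271 of all 10491 at an unadjusted p under 0.05.

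**Figure D5:**
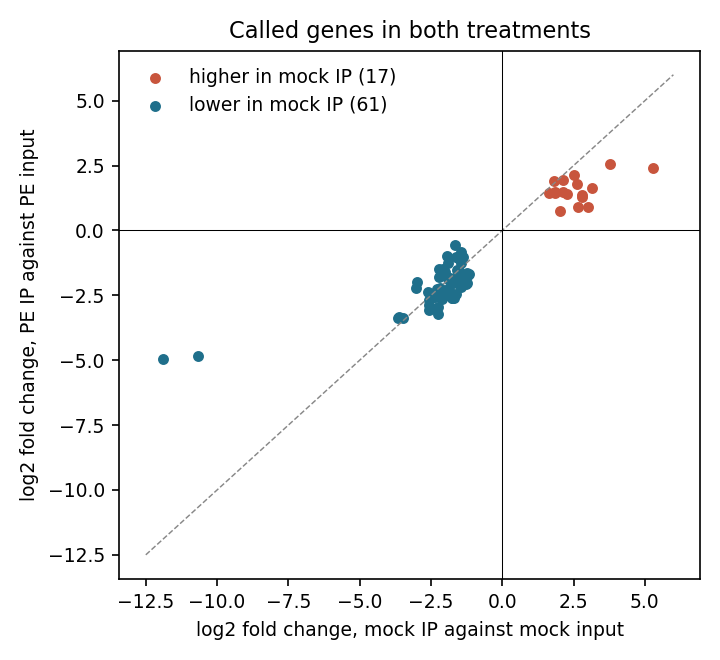
Log2 fold change of IP against input in PE cells (vertical axis) and in mock cells (horizontal axis) for the 17 genes that passed as higher and the 61 that passed as lower in mock cells, with a dashed line of equal values. All points share their sign between treatments, 16 of the 17 higher genes lie below the line, and the 2 points at far left have no count in the mock precipitates, so that their position depends on the fit's prior count.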

How the data were processed

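Raw counts per gene were deposited by the authors as 1 table of 32883 genes with no normalization, and its 32883 blank lines were skipped. Per the submitters' processing notes, the tools were DESeq2, featureCounts 1.6.4, STAR 2.7 and cutadapt 2.5 and the build was Rnor_6.0; strand setting and other options: not given in the sources used here. Per the labels' protocols, a 3′ kit was used on 200 ng of RNA, with 15 cycles. Columns were matched to samples by type, treatment and replicate number. The reference table of 47357 genes on GRCr8 holds 0 Ensembl identifiers, so no symbol, gene list or sequence could be used, and the identifiers stand for names, 2 per direction: the largest log2 fold changes among genes past the threshold with at least 10 CPM and no overlap.

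Tests used edgeR 4.0.16 in R 4.3.3: TMM, filterByExpr (10491 genes, with 99.6% or more of every library's counts), quasi-likelihood F-test with robust dispersions, 1 fit of 4 group means over 12 libraries, Benjamini-Hochberg threshold 0.05. SE is the fold change divided by the square root of F. Shares used exact permutation tests. The level classes and the 36 adjacent rows were chosen after seeing the data. DESeq2 1.42.0 and limma 3.58.1 served as alternatives. Libraries of 1 group differed by a chi-square of at least 7.79 per degree of freedom over genes with 20 counts or more, so none was a duplicate. Deviations from the group means of same-numbered mock input and IP correlated at 0.15, 0.24 and 0.11 in replicates 1, 2 and 3, and in PE at 0.20, 0.02 and 0.20. As all mock pairs exceeded 0.1, mock numbers were taken as pairs and blocked counts are given. Some unlike numbers exceeded it too: 0.12 for mock input 3 with IP 1, 0.10 for mock input 1 with IP 3, and 0.18 for PE input 2 with IP 3. Unlike mock numbers that involve replicate 2 gave -0.20 to -0.15. The mock values thus set replicate 2 apart and do not tell how replicates 1 and 3 pair, so the pairing is an assumption. Members, lists and tests were chosen with earlier results of these data known. The step was tested on simulated data of 10491 genes with 50 changed per fold size in mock IP against input: it recovered 0 at 2-fold, 17 at 4-fold, 29 at 8-fold and 37 at 16-fold, with 5 false calls.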

Additional observations from a re-analysis of the deposited data

How the results depend on the processing

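The main counts were 17 genes higher and 61 lower, and each pair below keeps that order. DESeq2 size factors gave 17 and 88, library totals 842 and 10 (98.8% higher against 21.8%), no filter 156 and 191, and the DESeq2 Wald test 126 and 281, with an adjusted p for 3769 genes. The 6 mock libraries alone gave 0 and 13, and 957 genes had an unadjusted p under 0.05. The replicate block gave 95 and 177, and it ended none of the calls of the 4 named genes. Leaving out mock replicate 2 and PE replicate 1 gave 164 and 344. Chosen after seeing the data, leaving out mock replicate 2 alone gave 2 and 12, limma voom 77 and 215, and leaving out the 36 adjacent rows 17 and 56, which removes 6 of the 61 by construction. Single libraries left out gave 0 to 19 and 0 to 71: 0 and 0 without mock input replicate 1 or mock IP replicate 3, 9 and 51 without mock input replicate 2, 2 and 14 without mock input replicate 3, 1 and 4 without mock IP replicate 1, 1 and 12 without mock IP replicate 2, 2 and 18 without PE input replicate 2, 8 and 54 without PE IP replicate 1, and 6 and 43 without PE IP replicate 2. In each of these fits all 17 and all 61 kept their sign, except that 60 of the 61 did with library totals and the 55 left did without the rows. For all of these genes the main fit had no overlap between IP and input. A refit of the same counts could hardly reverse their sign, so this says little about stability. The difference in genes at equal depth (235) ran from -422 to 1216 with single libraries left out and was -0.69 without the 36 rows. The effective number of genes and the share of the most abundant class kept their direction in all alternatives run; as pairs, their exact sign-flip permutation p was 0.25, the smallest for 3 pairs. For all of these the cause was not tested. Scaling on nuclear genes and the mitochondrial shares were not run, as no identifier could be assigned. Depth limits the rare genes most: the smallest mock library had 1423334 counts.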

Other observations

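The share of the 36 adjacent rows in a library did not overlap between input and IP, whereas the part of it held by their 2 largest rows did. The 2 rows with the most counts in a library held 50.7%, 62.5% and 49.8% of the counts of these rows in mock inputs 1, 2 and 3, and 52.6%, 52.2% and 50.3% in mock IP 1, 2 and 3. Input 2 was the highest of the 6 in this part and the other 5 lay close together. The 2 rows were picked in each library separately and need not be the same genes. Similar values therefore do not mean that the libraries shared the make-up of these counts. Of the 24 genes tested there, 15 passed as lower with the replicate as a block (edgeR adjusted p under 0.05), where 1.69% of all genes tested did. Without the block 6 of the 24 passed as lower, where 0.581% of all genes did, and 0 passed as higher. In PE cells all 24 had a negative log2 fold change of IP against input, with a median of -3.63, and 8 passed as lower (edgeR), where 1.65% of all genes did. The rows were found through their mock calls, so the mock counts describe that choice.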
